A study of Mus musculus with 3 samples.

Results

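The 5 genes described here encode core parts of the synapse: Ctbp2, Syp, Snap25, Syt1 and Dlg4. They were measured by all probe sets whose platform annotation gives exactly 1 of these symbols, which were 6 of 12422 probe sets and 5 of 8251 genes. Ctbp2 had 2 probe sets, 92554_at and 160979_at, and each of the other genes had 1. The genes lie on mouse chromosomes 7 (Ctbp2), X (Syp), 2 (Snap25), 10 (Syt1) and 11 (Dlg4). The RNA came from neural retinas of Rp1 knockout (Rp1-/-) mice on a mixed 129/SvEv and C57BL/6 background, killed at postnatal day 21, with retinas taken between 1 and 2 pm. Each of the 3 samples was a pool from 3 to 4 mice, hybridised to 1 one-colour Affymetrix array. All 3 samples carry the same genotype and form 1 group, so the values below describe levels and their spread between pools, and no contrast between genotypes was made. How the Rp1 allele was disrupted and the sex of the mice are not given in the sources used here, and 0 probe sets carried the symbol Rp1.

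Retinal neurons use 2 kinds of chemical synapse. Photoreceptors and bipolar cells release glutamate at ribbon synapses, where an electron-dense plate tethers vesicles near the calcium channels for sustained release. Its main protein, RIBEYE, is made from Ctbp2 through an alternative start and shares its C-terminal part with the transcriptional co-repressor CtBP2. Amacrine and other cells use conventional synapses without a ribbon. Both kinds carry synaptophysin (Syp) in the vesicle membrane, fuse vesicles through the SNARE protein SNAP-25 (Snap25) and sense calcium mainly through synaptotagmin 1 (Syt1). PSD-95 (Dlg4) is a scaffold of postsynaptic densities in the brain and, in the retina, also lies inside photoreceptor terminals.

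The start regions of these genes show where their transcripts may begin, and not which transcripts a probe set reads. RefSeq start windows on GRCm38.p6 were matched for 4 of the 5 genes, with 8 windows in all, 2 for Ctbp2, 1 for Syp, 2 for Syt1 and 3 for Dlg4. The 250 bases before the start are printed for both windows of Ctbp2, the gene with 2 products, and for the first windows of Syt1 and Dlg4, whose ranges between the pools were the widest of the 6 probe sets under trimmed-mean scaling, though not under every scaling. Capitals mark TAATCC (the core recognised by the photoreceptor homeobox factor CRX), GGGCGG (the GC box) or TATAAA (the TATA box), on either strand.
Ctbp2 window 1, chr7:133081861-133082110, minus strand: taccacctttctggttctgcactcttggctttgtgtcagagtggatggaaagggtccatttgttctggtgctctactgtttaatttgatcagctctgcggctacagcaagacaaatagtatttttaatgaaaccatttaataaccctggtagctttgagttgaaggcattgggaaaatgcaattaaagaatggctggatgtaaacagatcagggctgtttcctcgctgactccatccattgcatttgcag
Ctbp2 window 2, chr7:133015248-133015497, minus strand: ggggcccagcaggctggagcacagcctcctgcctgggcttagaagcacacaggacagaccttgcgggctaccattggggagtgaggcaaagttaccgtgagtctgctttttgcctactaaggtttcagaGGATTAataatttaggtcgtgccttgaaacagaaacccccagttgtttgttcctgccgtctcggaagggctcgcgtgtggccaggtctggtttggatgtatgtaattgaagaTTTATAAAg
Syt1 window 1, chr10:109010976-109011225, minus strand: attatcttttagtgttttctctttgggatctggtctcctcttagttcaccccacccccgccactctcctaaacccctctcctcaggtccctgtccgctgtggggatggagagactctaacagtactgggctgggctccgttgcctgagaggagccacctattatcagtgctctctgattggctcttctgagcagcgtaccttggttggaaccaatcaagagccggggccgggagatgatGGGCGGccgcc
Dlg4 window 1, chr11:70016953-70017202, plus strand: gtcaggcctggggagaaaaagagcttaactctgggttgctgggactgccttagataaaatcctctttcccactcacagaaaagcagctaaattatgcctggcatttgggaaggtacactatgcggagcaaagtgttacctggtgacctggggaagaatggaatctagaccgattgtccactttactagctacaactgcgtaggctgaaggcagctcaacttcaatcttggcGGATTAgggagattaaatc

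The first Ctbp2 window held none of the 3 motifs. The second held TAATCC on the reverse strand, beginning 121 bases before the start, and TATAAA on both strands in overlapping letters 9 and 7 bases before it. In Dlg4 window 1 the reverse of TAATCC began 19 bases before the start, and in Syt1 window 1 GGGCGG began 11 bases before it. The single Syp window, not printed, held the reverse of TAATCC 246 bases before the start and GGGCGG 67 and 49 bases before it. TAATCC was thus in 3 of the 8 windows, while 6.25% of all 32851 windows of this length hold it. GGGCGG was in 3 of the 8 and in 32.7% of all windows, and TATAAA was in 1 of the 8 and in 12.4% of all. These are matches of letters and not binding sites. The probe set annotation does not say which Ctbp2 transcript a probe set reads, so RIBEYE and CtBP2 cannot be told apart here.

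Values are scaled signals, the deposited linear intensities after each array was brought to a common trimmed mean. A probe set counted as above background where its signal exceeded the 95th percentile of 19 bacterial and yeast control probe sets of the same array, which was 160.3, 80.7 and 107.1 in replicates 1, 2 and 3. All 6 synapse probe sets were above background on all 3 arrays, as were 54.4% of all probe sets. The smallest ratio of a signal to the limit of its own array lay between 5.34 for Dlg4 (replicate 3) and 70.9 for Snap25 (replicate 1). Signals of different probe sets are not ranked, since probe sets differ in response. In these bulk samples, fewer cells of a type and less RNA per cell cannot be told apart.

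Of the ribbon gene, Ctbp2, probe set 92554_at gave 3875, 3769 and 3462 in replicates 1, 2 and 3, a mean of 3702 ± 215 (SD, n = 3). Probe set 160979_at gave 2608, 2698 and 2429.8, a mean of 2579 ± 136 (SD, n = 3). Both were lowest in replicate 3, which neither was with a common median, and all 3 pools lay close together. The highest signal exceeded the lowest by 1.12-fold and 1.11-fold. Of all probe sets above background, not matched on signal, 96.3% and 96.8% had a wider range than these ranges of Ctbp2. With the arrays set to a common median these ranges were 1.33-fold and 1.41-fold, and with quantile normalization 1.49-fold and 1.30-fold.

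The pair of Ctbp2 probe sets followed each other closely when each array had a single scaling factor. Their within-array ratio, which does not depend on a single scaling factor per array, varied by 1.06-fold over the 3 samples. Among 298 genes with exactly 2 probe sets of plain suffix above background, the median was 1.90-fold. Of these genes, not matched on signal, 98.3% had a wider range than Ctbp2. After quantile normalization the Ctbp2 ratio varied by 1.19-fold, and the ratios of the other genes were not computed there. The highest sample was replicate 1 at 92554_at and replicate 2 at 160979_at, a disagreement over differences of a few percent. Both probe sets shared the highest sample in 34.2% of the 298 genes. Ctbp2 probe sets were both highest in replicate 2 with a common median and both highest in replicate 1 with quantile normalization, so the order of the pools for Ctbp2 changed with the scaling.

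**Figure D1:**
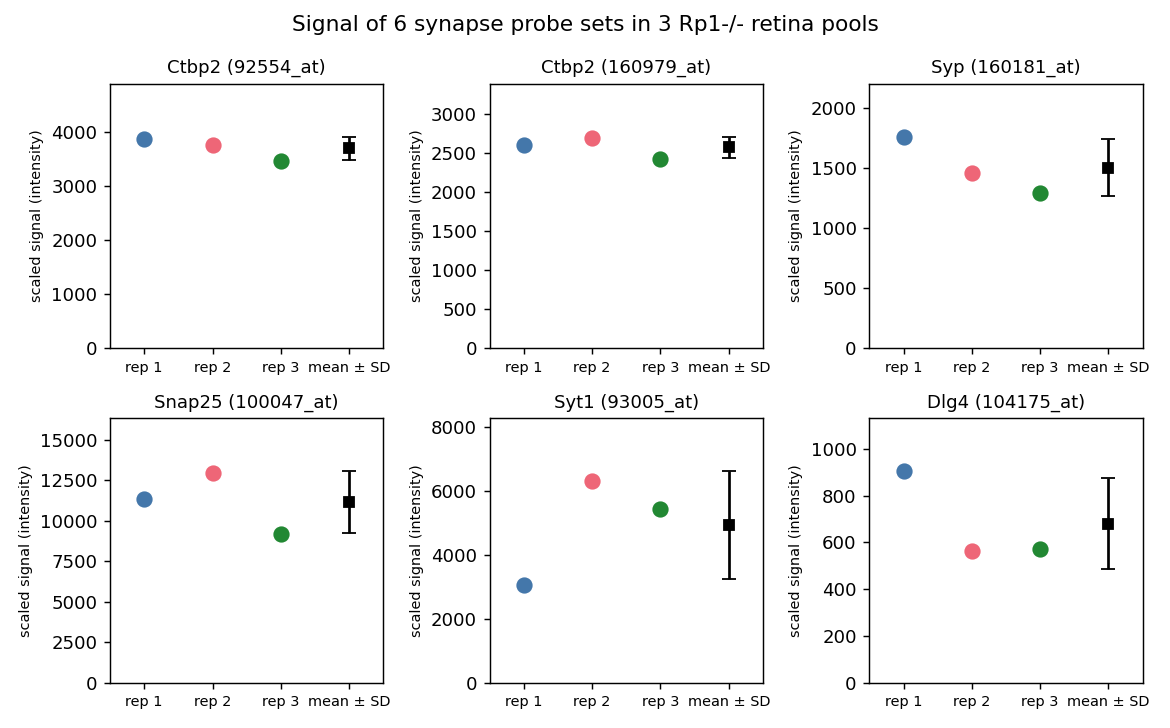
Scaled signal (linear intensity, y axis from 0) of the 6 synapse probe sets in replicates 1, 2 and 3 (circles), with the mean and SD (square and bar). The Ctbp2 probe sets vary by 1.12-fold and 1.11-fold, while Syt1 is lowest in replicate 1 at 3056 and Dlg4 is highest there at 904.

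Of the vesicle genes, Syp, the gene of the tetraspan vesicle protein synaptophysin, gave 1761, 1454 and 1293 in replicates 1, 2 and 3, a mean of 1503 ± 238 (SD, n = 3). It was highest in replicate 1 (replicate 2 with a common median) and lowest in replicate 3, a 1.36-fold range that 75.6% of probe sets above background exceeded. The Syp range was 1.30-fold with a common median and 1.52-fold with quantile normalization. Snap25, whose product joins the SNARE bundle from the plasma membrane, gave 11358, 12929 and 9159, a mean of 11149 ± 1894 (SD, n = 3). It was highest in replicate 2 (replicate 1 with quantile normalization) and lowest in replicate 3. Its range was 1.41-fold, and 71.1% of probe sets above background had a wider one. The Snap25 range was 1.63-fold with a common median and 1.61-fold with quantile normalization.

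Syt1, the vesicle calcium sensor for fast release, gave 3056, 6302 and 5445 in replicates 1, 2 and 3, a mean of 4934 ± 1682 (SD, n = 3). Replicate 1 stood below both other pools, which lay within 1.16-fold of each other. Its 2.06-fold range was the only one of the 6 at 2-fold or more, a range reached by 30.6% of all probe sets above background. The range was 1.78-fold without replicate 2 and 1.16-fold without replicate 1. It was 2.82-fold with a common median and 1.47-fold with quantile normalization, and replicate 1 remained the lowest sample under both. After quantile normalization, of the 6 probe sets only Ctbp2 at 160979_at, at 1.30-fold, had a narrower range than Syt1.

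Dlg4, the postsynaptic and photoreceptor-terminal scaffold, gave 904, 565 and 572 in replicates 1, 2 and 3, a mean of 680.4 ± 193 (SD, n = 3). Replicate 1 was the high sample, and replicates 2 and 3 lay within 1.01-fold of each other. The range of 1.60-fold was exceeded by 53.8% of probe sets above background. The Dlg4 range was 1.33-fold with a common median and 1.52-fold with quantile normalization. Replicate 1 was also the highest for Dlg4 with a common median and with quantile normalization.

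Across the 6 probe sets the median SD was 0.24 on the log2 scale. It was 0.38 over all probe sets above background, which were not matched to the 6 on signal. Without replicate 1 these medians were 0.11 and 0.25, and with quantile normalization they were 0.32 and 0.36. Over the 6 probe sets, replicate 3 was the lowest sample for 4, replicate 1 for Syt1 and replicate 2 for Dlg4. Replicate 3 was the lowest for 3 with a common median and for 4 with quantile normalization. A common median moved replicates 1, 2 and 3 by -0.22, 0.23 and 0.02 on the log2 scale, and the first 2 of these shifts exceed all deviations of Ctbp2 in size.

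**Figure D2:**
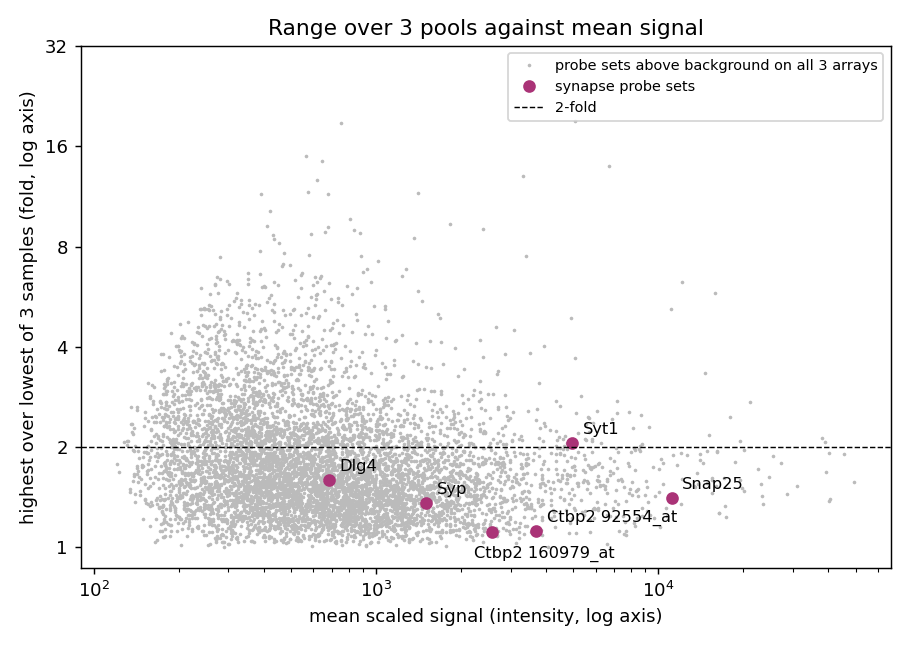
Mean scaled signal (intensity, log axis) against the highest over the lowest of the 3 samples (fold, log axis) for all probe sets above background on all 3 arrays (grey) and the 6 synapse probe sets (purple). Syt1 lies just above the dashed 2-fold line at 2.06, and both Ctbp2 probe sets lie near the bottom edge at 1.12 and 1.11.

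**Figure D3:**
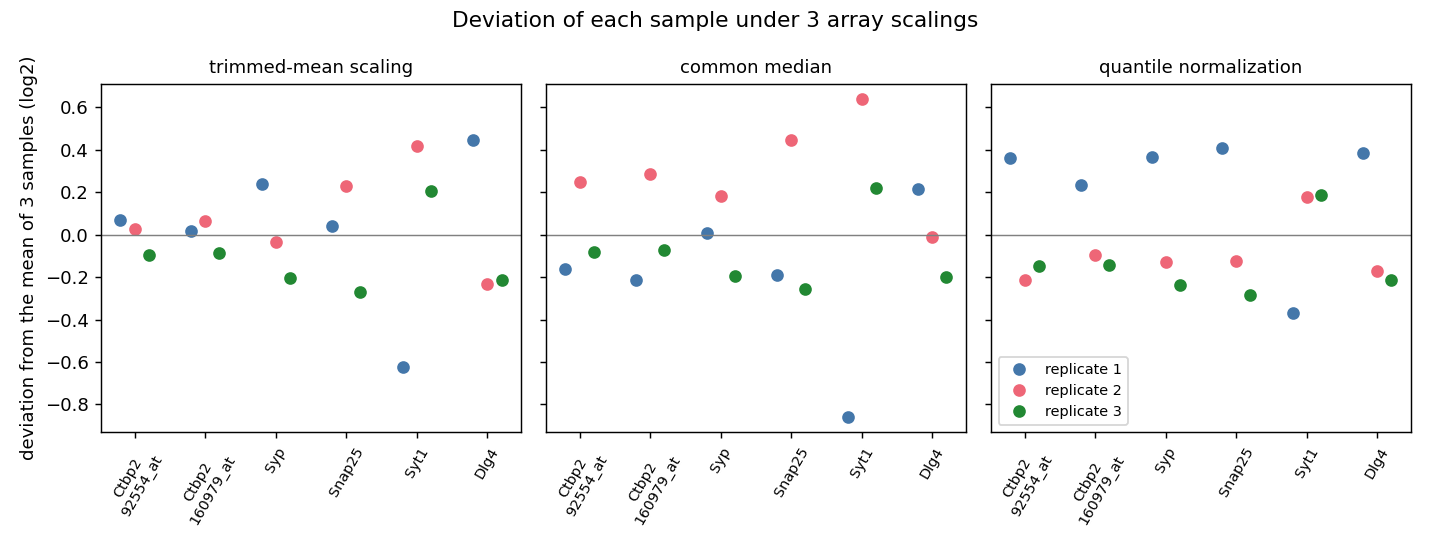
Deviation of the samples from their 3-sample mean (log2) for the 6 probe sets under trimmed-mean scaling, a common median and quantile normalization, with colours for replicates 1, 2 and 3. Replicate 1 is the lowest point of Syt1 and the highest of Dlg4 in each panel, while the order of the samples for Ctbp2, Syp and Snap25 differs between panels.

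Ratios between probe sets of the same array show whether the genes kept their proportions from pool to pool. Of the 15 pairs among the 6 probe sets, 10 did not involve Syt1. Their ratio varied by 1.06-fold to 1.82-fold over the 3 samples (median 1.31-fold). The 1.06-fold was that of the Ctbp2 probe sets to each other. Between different genes the narrowest under array scaling was 1.22-fold, for Ctbp2 (at 92554_at) and Syp. The 5 pairs with Syt1 varied by 1.99-fold to 3.30-fold (median 2.21-fold), and 4 of them reached 2-fold. Over all pairs of probe sets above background, not matched on signal, the median was 2.10-fold, and 54.1% reached 2-fold. The Syt1 pairs thus varied about as much as pairs at large, and the remaining pairs of the 6 probe sets varied less. The pairs share probe sets and arrays, and are not independent.

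The widest ratio was that of Syt1 to Dlg4. On the log2 scale it lay at -1.07 from its mean in replicate 1 and at 0.65 and 0.42 in replicates 2 and 3, a 3.30-fold range. Without replicate 1 this range was 1.17-fold, and without replicate 2 it was 2.81-fold. Quantile normalization gave 2.23-fold. Without replicate 1 the 5 Syt1 pairs varied by 1.03-fold to 1.22-fold and the 10 other pairs by 1.01-fold to 1.43-fold, so the wider ratios of Syt1 rested on that pool. The median log2 SD of all probe sets above background was 0.25 without replicate 1, 0.34 without replicate 2 and 0.38 without replicate 3. Replicate 1 thus set the pools apart well beyond Syt1, and the ratios of all pairs without it were not computed. The proportions of Syp, Snap25, Dlg4 and Ctbp2 varied by 1.04-fold to 1.24-fold after quantile normalization, and those with Syt1 by 1.91-fold to 2.37-fold. Syp with Dlg4 was then the narrowest at 1.04-fold, and the Ctbp2 probe sets varied by 1.19-fold to each other.

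**Figure D4:**
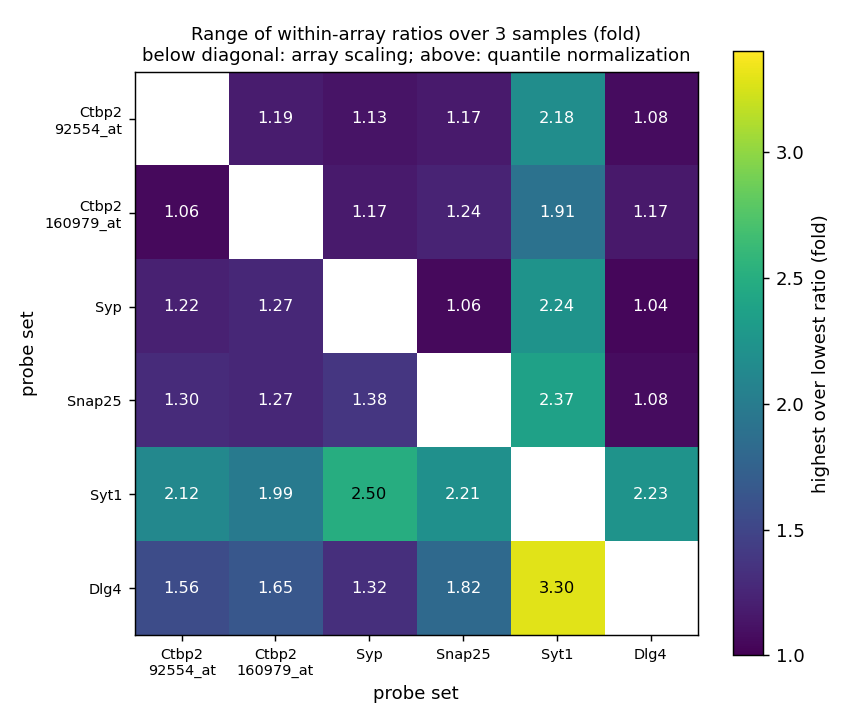
Highest over lowest within-array ratio over the 3 samples (fold) for each pair of the 6 probe sets, with array scaling below the diagonal and quantile normalization above it. The row and column of Syt1 hold values between 1.91 and 3.30, and all other cells lie between 1.04 and 1.82.

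The pools also differed in the summed signal of markers of other cells, which weighs the strongest markers most. The summed signal of 8 rod phototransduction genes, all above background, was 111745, 175820 and 129316 in replicates 1, 2 and 3. The labelled tissue thus had its defining photoreceptor transcripts. The sum over 4 bipolar markers, 3 of them above background on all arrays, was 1402, 2784 and 2853. The sum over 5 ganglion cell markers, all above background, was 7925, 6025 and 4865. The sum over 7 pigment epithelium markers, 4 of them above background on all arrays, was 2437, 13502 and 8774. That of 4 red blood cell genes, 2 of them above background on all arrays, was 5490.3, 31716 and 8254, and that of 6 lens genes, all above background, was 128047, 189531 and 133829. The sum over all 8251 genes was itself lowest in replicate 1 and highest in replicate 2, at 5.68e+06, 6.43e+06 and 5.87e+06. Of the 12 marker lists, the sum was likewise lowest in replicate 1, as Syt1 was, for 8. These were rod, cone, bipolar, amacrine and horizontal, Müller, pigment epithelium, red blood cell and lens. The sum was highest in replicate 1, as Dlg4 was, for 3 (ganglion cell, endothelial and muscle), and the microglia sum was highest in replicate 3. These sums were taken under trimmed-mean scaling alone, and their order under the other scalings was not computed. Not every marker followed the sum of its list. Rod genes were lowest in replicate 1 for 4 of 8 and in replicate 3 for 4, and lens genes for 3 of 6 and 3. Among genes above background on all arrays, 1 of 2 red blood cell genes was lowest in replicate 1. So were 3 of 3 cone, 3 of 3 bipolar and 3 of 4 pigment epithelium genes. Of 5 Müller genes, 3 were lowest and 2 highest in replicate 1. Of 4 amacrine and horizontal genes above background on all arrays, 2 were lowest and 2 highest there. Of 5 muscle genes, 1 was above background on all arrays. The 3′ to 5′ signal ratio was 1.31, 1.50 and 1.47 for the actin control and 0.898, 0.929 and 0.845 for the Gapdh control. No marker was listed at 0, and the part of cell makeup or RNA quality in the spread of Syt1 and Dlg4 was not tested.

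The nearest patterns were sought among 5005 other genes above background, as the Euclidean distance between the log2 deviations of the 3 samples. With so few samples many genes lie close, and within a distance of 0.1 there were 129 genes for Ctbp2 (at 92554_at), 113 for Syp, 101 for Snap25, 51 for Syt1 and 67 for Dlg4. Nearest to Ctbp2 were Ap3d1, Ndrg2 and Ddb1. Nearest to Syp were Atg5, Nfs1 and Ubxn4, and to Snap25 Sdha, Timm23 and Ppm1g. Npc1, with 804, 1674 and 1436 in replicates 1, 2 and 3, was nearest to Syt1, followed by Tmem185a and Elob. Tap1, with 245, 153 and 155, was nearest to Dlg4, followed by Mpg and Zkscan5. The other genes among the 6 probe sets were not among these nearest genes.

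Beyond the core genes, 6 lists of synapse genes held 122 genes, of which 71 had a probe set of their own. Of these 71, 51 were above background on all 3 arrays (71.8%), beside 60.7% of all genes, 14 on 1 or 2 arrays and 6 on none. The range was 2-fold or more in 13 of the 51, beside 28.3% of all genes above background. Their median log2 SD was 0.27, against 0.36 over all genes above background, which were not matched on signal.

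Among partners of Ctbp2 at the ribbon and active zone, 5 of 7 measured genes were above background on all arrays, and 0 of the 5 had a 2-fold range. Ctbp1, the paralog of Ctbp2, gave 1870, 1739 and 1495 in replicates 1, 2 and 3, lowest in replicate 3 under each of the 3 scalings. Pclo, which encodes the active zone scaffold Piccolo, gave 886, 766 and 867. The vesicle priming gene Unc13b gave 1145, 1163 and 974. Unc119, whose lipid-binding product is abundant in photoreceptors, gave 15203, 18632 and 12749, highest in replicate 2 but in replicate 1 with quantile normalization. Cacnb2, a calcium channel beta subunit of the photoreceptor synapse, gave 1393, 1821 and 2169, at 1.56-fold the widest range of the 5 genes above background on all arrays. Bsn, the gene of Bassoon, which anchors the ribbon, was below background on all arrays at 153, 34.7 and 48.9, and the liprin gene Ppfia4 was above it in replicate 2 alone, at 159.

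Among partners of Snap25 in membrane fusion, 13 of 16 measured genes were above background on all arrays, and 2 of the 13 had a 2-fold range. Stx3, the syntaxin of ribbon synapses, gave 1317, 1338 and 1401, a 1.06-fold range. Its other probe sets gave 1295, 1007 and 686, and 1329, 1846.5 and 1369, so the 3 did not share a highest sample. Stx1a, the syntaxin of conventional synapses, gave 346, 283 and 186. Napa, which encodes the SNAP adaptor that recruits NSF to spent SNARE bundles, gave 1600.5, 3395 and 2818, low in replicate 1 as Syt1 was. Stx4a gave 812, 444 and 399, and Snap47 gave 2020.3, 2621 and 2028. Snap23, the widely expressed relative of Snap25, was below background in replicate 1 at 44.8 and above it at 160.2 and 134 in the other pools. Stx2 lay just below the limit of 160.3 in replicate 1, at 159, and gave 505 and 828 in the other pools.

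Among vesicle membrane genes, where Syp belongs, 8 of 10 were above background on all arrays, and 4 of the 8 had a 2-fold range. Sypl, a synaptophysin relative, gave 890.5, 768 and 752, highest in replicate 1 and lowest in replicate 3 like Syp, and like Syp highest in replicate 2 with a common median. Slc32a1, the vesicular transporter of GABA and glycine in amacrine and horizontal cells, gave 2772, 2952 and 2184. Rab3a, the vesicle GTPase, gave 945, 289.7 and 885, with a 3.26-fold range, and another Rab3a probe set was below background on all arrays. Dnajc5, the gene of cysteine string protein, gave 1495, 594 and 728. Syn2, a synapsin gene, gave 709.9, 313 and 426, and the synaptogyrin genes gave 887, 489 and 543 for Syngr1 and 196.0, 337 and 420.0 for Syngr2. Rab3b and Rab3d were below background on all arrays.

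Of the other calcium sensors, 5 of 11 were above background on all arrays, 5 on 1 or 2 and Syt8 on none, and 0 of the 5 had a 2-fold range. Syt2 gave 480.1, 349 and 353, and another probe set gave 266, 109.5 and 221. Syt3 gave 709.7, 473 and 777, although another of its probe sets was above background on 1 array only. Syt11 gave 676, 1034 and 888, lowest in replicate 1 as Syt1 was, and Doc2b gave 393, 432 and 555. Syt4 was below background in replicate 1 at 108.5 and gave 505 and 361 in the other pools. Syt5 gave 708, 268 and 60.7, below background in replicate 3, and Syt6 was above it in replicate 2 alone, at 172.

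Among scaffold and adhesion genes, where Dlg4 belongs, 9 of 13 were above background on all arrays, and 3 of the 9 had a 2-fold range. Dlg1, the SAP97 paralog of Dlg4, gave 1918, 1626 and 1509, highest in replicate 1 like Dlg4, but in replicate 2 with a common median. Dlg3, the SAP102 paralog, gave 665 in replicate 1 and 186 in replicate 2, and was below background in replicate 3 at 29.7. Dlgap4, of the family that binds PSD-95, gave 687, 526 and 615. Homer3, a postsynaptic adaptor gene, gave 528.5, 198 and 389.7, and Dmd, the dystrophin gene, gave 502, 207 and 258. Dag1, which encodes the dystroglycan of photoreceptor terminals, gave 473, 633 and 1143, while another probe set gave 428, 288 and 225, with the opposite order of the pools. Homer1 was below background on all arrays at both of its probe sets, and Homer2 was below it in replicate 1 alone.

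Of the genes that retrieve vesicle membrane after release, 11 of 14 were above background on all arrays, and 4 of the 11 had a 2-fold range. Dnm1, the neuronal dynamin gene, gave 7486, 6294 and 5994, and another probe set gave 6514, 10241 and 7525. Ap2a2, an alpha subunit of the AP-2 clathrin adaptor, gave 2535, 6431 and 6346, low in replicate 1, but 1531, 1713 and 1301 at another probe set. The other alpha subunit gene, Ap2a1, gave 1156, 296 and 325, so that the pair lay on opposite sides in replicate 1. Cltb, a clathrin light chain gene, gave 324, 839 and 865, low in replicate 1 as Syt1 was. The endophilin genes gave 1221, 603 and 789 for Sh3gl1 and 645, 505 and 457 for Sh3gl2, while Sh3gl3 was below background in replicate 1. Dnm2 was below background on all arrays at one probe set, although another gave 185 and 526 in replicates 2 and 3.

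Counted over the 51 genes, replicate 1 was the highest sample for 27, replicate 2 for 15 and replicate 3 for 9. Of all 5006 genes above background, replicate 1 was highest for 2134, replicate 2 for 1650 and replicate 3 for 1222. Replicate 1 was the lowest sample for 19 of the 51, replicate 2 for 18 and replicate 3 for 14, beside 1802, 1622 and 1582 of all 5006 genes. With a common median, replicate 1 was highest for 10 and lowest for 27 of the 51, beside 1195 and 2706 of all genes. With quantile normalization it was highest for 27 and lowest for 17, beside 1958 and 1991 of all genes. Both places, that of Syt1 and that of Dlg4 in replicate 1, thus occurred among other synapse genes under each scaling.

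**Figure D5:**
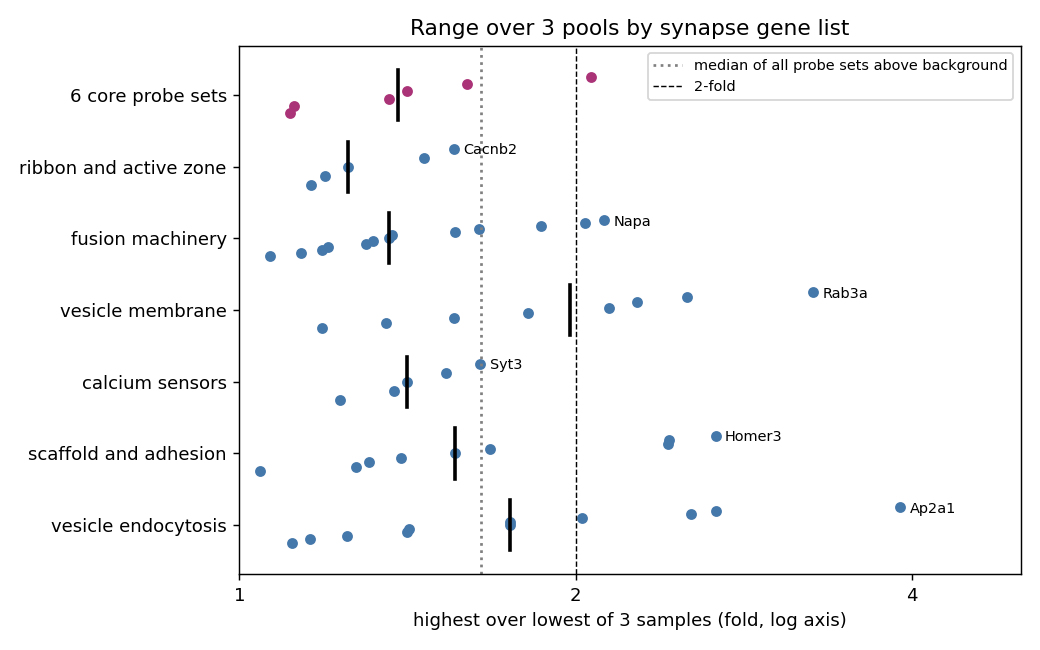
Highest over lowest of the 3 samples (fold, log axis) for the 6 core probe sets (purple) and for genes of the 6 wider lists that were above background on all 3 arrays (blue), with the list median as a black bar and the gene of widest range named. Ribbon and active zone genes end at 1.56 (Cacnb2), while Rab3a reaches 3.26 and Ap2a1 3.90.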

How the data were processed

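Transcripts of 3 pooled neural retina samples of 1 group were read from the deposited table, whose 12488 rows are probe sets and whose 3 columns are linear array intensities. The sample titles, per the labels, name the U74Av2 array. The authors' software, background correction and scaling are not given in the sources used here. The deposited intensities had a mean of 500.2, 500.3 and 500.2 after trimming 2% at each end, so they share a scale. Each array was multiplied by 0.998, 1.00 or 1.00 to equal its 2% trimmed mean over 12422 probe sets that are not the 66 controls, and its 5th percentile was the floor of log2 values.

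Symbols came from the platform annotation, where 10833 probe sets have 1 symbol, 396 several and 1193 none. No probe set with several symbols held a core gene. For the wider lists 1 probe set per gene was used, a plain suffix first and then the highest mean. Named genes were all probe sets of the core genes, the first 5 measured genes of each list, the 3 with the widest range and those below background on all arrays, and the 3 nearest patterns of each core gene. The members and lists were chosen with earlier results of these data known. With 1 group there was no test, and the number of arrays limits precision. The labels list the pools as separate samples, and replicate numbers follow deposit order. No 2 arrays held identical values, and correlations of log2 signal lay between 0.81 and 0.92. The range and SD computation was tested on simulated data. Python 3.11.15, numpy 2.4.6 and pandas 2.3.3 were used.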

Additional observations from a re-analysis of the deposited data

How the results depend on the processing

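Alternatives were 2 other background limits, 3 other array scalings, no floor, a pseudocount of 50, leaving out each sample in turn and, for the wider lists, 2 other choices of probe set. All 6 core probe sets stayed above background on all arrays in each. Only the other background limits could have lowered this count, since quantile normalization keeps the order of signals within an array. Mean signals moved by less than 1 SD in the alternatives with all samples. With 1 sample left out they cannot move by 1 SD, by construction. When arrays were set to a common median, the fold ranges of Ctbp2 were 1.33 (92554_at) and 1.41 (160979_at), and its probe sets shared the highest sample, which makes 1 gene against 0. With quantile normalization these ranges were 1.49 and 1.30, the probe sets again shared the highest sample (1 gene), and 0 of the 6 probe sets had a 2-fold range, against 1. With a common median the changes follow from the single factor applied to each array. Why the arrays differed in their median or in the spread of their signals was not tested. With 1 sample left out, mean signals ran from 3615 to 3822 and 2519 to 2653 for Ctbp2, 1374 to 1608 for Syp, 10258 to 12143 for Snap25, 4251 to 5873 for Syt1 and 569 to 738 for Dlg4. The fold ranges ran from 1.03 to 1.12 and 1.03 to 1.11 for Ctbp2, 1.12 to 1.36 for Syp, 1.14 to 1.41 for Snap25, 1.16 to 2.06 for Syt1 and 1.01 to 1.60 for Dlg4. The count with a 2-fold range was 0 or 1, being 0 without replicate 1 or 2, and that of genes with a shared highest sample 0 or 1. The median SD of the 6 ran from 0.11 to 0.27. The wider synapse genes above background numbered 49 to 53 in the alternatives with all samples (53 with the mean of all probe sets or the highest-mean probe set), and 51 to 58 with 1 left out. Fewer samples give narrower ranges by construction. No paired analysis was possible because there is 1 group.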
